A study of Homo sapiens with 6 samples.

Results

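Peaks of YAP and TAZ that lie beside long peak-free stretches of the genome, such as those at centromeres, were examined in H1299, a long-established cell line from a human non-small cell lung carcinoma. The members were chosen by the measured peak positions themselves. All peaks of 4 deposited lists on chromosomes 1 to 22 and X were merged, a gap was a stretch of at least 1 Mb between neighbouring merged peaks, and every peak within 1 Mb of a gap edge was a member. This gave 20 gaps on 19 chromosomes and 15925 member peaks of 1389618 in all. YAP replicate 1 held 4408 of its 392120 peaks there and YAP replicate 2 held 4080 of 353336. TAZ replicate 1 held 3892 of 333505 and TAZ replicate 2 held 3545 of 310657. Members were therefore 1.12%, 1.15%, 1.17% and 1.14% of the 4 lists. Because positions chose them, the number and place of the gaps are described without a test.

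The lists came from chromatin immunoprecipitation followed by sequencing (ChIP-seq), 2 libraries with an antibody against YAP and 2 with an antibody against TAZ, in a study that compared where both proteins bind chromatin. All cells had been serum starved for 18 hours, and there was no other treatment and no genetic change in the labels. A further 2 input libraries without antibody entered only through the lists that were compared with them. The labels do not say whether the replicates were separate cultures, so each spread below, and each p made from it, is one between libraries and may be technical. Read depth is unknown, since a peak list holds no read totals. It is unsettled which input a library was set against: the peak names give 1 input for all 4 lists, and the list names give 1 per replicate number.

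YAP and TAZ are transcriptional coactivators of the Hippo pathway. They do not bind DNA themselves and reach it through partners such as the TEAD factors, mostly at enhancers in the chromosome arms. A centromere, where the kinetochore forms, is built on long arrays of alpha satellite repeats, and the sequence around it is rich in other satellites and in segmental duplications. A reference assembly such as hg19 holds most of these arrays as blocks of undetermined bases, to which no read can be placed, and it holds fewer copies of the flanking repeats than a genome does.

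Most gaps were of similar length. Of the 20, 16 were between 2999879 and 3202366 bp long. The shortest, on chromosome 2 from 90489646 to 91595133, had 1105488 bp. The longest were on chromosome 1 from 121485613 to 142535294 (21049682 bp), on chromosome 9 from 47266278 to 65469884 (18203607 bp) and on chromosome 16 from 35285737 to 46385727 (11099991 bp). They were followed by those on chromosome 11 from 51593313 to 54795678, on chromosome 10 from 39155041 to 42354832 and on chromosome 21 from 11186949 to 14338109. Chromosome 2 had a second gap from 92326171 to 95337427, and chromosomes 13, 14, 15 and 22 had none. The threshold of 1 Mb fell in an empty range, since the next shorter peak-free stretch had 635341 bp (chromosome 15 from 82579533 to 83214873). Together the gaps held 100.5 Mb and the stretches within 1 Mb of their edges 38.7 Mb. The rest of the same 19 chromosomes, with which the members were compared, held 2507 Mb.

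Coordinates are those of hg19 and count from 1. No annotation of that build was used, so genes are given only by their order in the RefSeq table of GRCh38.p14, without positions. In that table the longest stretch without a protein-coding gene lay on chromosome 6 between PRIM2, a subunit of DNA primase, and KHDRBS2, an RNA-binding protein. On chromosome 12 it lay between ALG10 and ALG10B, a pair of glucosyltransferases of protein glycosylation, and on chromosome 10 between the zinc finger genes ZNF37A and ZNF33B. On chromosome 18 it lay between ANKRD30B and ROCK1, a kinase of the actin cytoskeleton. These stretches were not matched to the hg19 gaps by position, nor were the gaps matched to annotated centromeres.

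Beside the gaps, peaks pooled over chromosomes were wider and fewer than in the rest of the same chromosomes. Near gaps the YAP members had median widths of 811 and 820 bp and the TAZ members of 772.5 and 856 bp. Elsewhere the YAP peaks had 608 and 624 bp and the TAZ peaks 635 and 711 bp, so that each library was wider near gaps, by 1.33, 1.31, 1.22 and 1.20 times. Near gaps there were 114 and 105 YAP peaks per Mb and 100.5 and 91.5 TAZ peaks per Mb. The rest held 138 and 125 YAP peaks and 118 and 109 TAZ peaks per Mb, and all 4 libraries were thus sparser near gaps, at 0.823, 0.843, 0.854 and 0.836 times the rest. Very wide peaks added to this difference. Peaks of 10 kb or more numbered 123, 113, 69 and 56 near gaps in YAP replicates 1 and 2 and TAZ replicates 1 and 2, or 2.79%, 2.77%, 1.77% and 1.58% of the members, against 0.878%, 0.779%, 0.635% and 1.02% of the other peaks.

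Pooled over chromosomes, the share of bases under peaks was higher near gaps in each library, by little in TAZ replicate 2. Near gaps each chromosome entered with a similar length, and in the rest with its own full length. The pooled comparison is therefore not matched by chromosome, and its direction can depend on this weighting. YAP peaks covered 22.5% and 20.2% of the bases near gaps and 18.1% and 15.9% of the rest. TAZ peaks covered 16.1% and 15.4% near gaps and 14.3% and 15.1% of the rest. The enrichment of the peaks went the other way. The fold is the authors' measure of how far the ChIP signal of a peak exceeds the input. Its median over the YAP members was 2.96 and 2.99, and over the other YAP peaks 3.15 and 3.14. Over the TAZ members it was 3.00 and 2.88, and over the other TAZ peaks 3.17 and 3.04. Members with a fold of 4 or more made up 7.44% and 6.50% near gaps with YAP and 7.68% and 4.43% with TAZ, against 9.49%, 7.66%, 9.82% and 5.77% of the other peaks of these libraries.

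Peaks with very small q-values were nevertheless more frequent among members than in the rest. The deposited −log10 q, the peak caller's significance after correction, reached 10 in 192 and 91 YAP members and in 50 and 51 TAZ members. These were 4.36%, 2.23%, 1.28% and 1.44% of the members. Over all peaks of the lists the shares were 1.3%, 0.156%, 0.134% and 0.0695%. Against the rest of the same chromosomes, the shares near gaps were 3.25, 16.0, 10.2 and 24.7 times as high in YAP replicates 1 and 2 and TAZ replicates 1 and 2. Since members were wider than other peaks, peaks of like width were also compared. Among peaks of at least 5 kb, 13.7%, 12.8%, 9.62% and 8.04% reached that value near gaps and 0.549%, 0.0732%, 0.0441% and 0.0454% in the rest. Among peaks under 500 bp, which held 1728, 1574, 1527 and 1313 members, the shares were 3.99%, 1.02%, 0.524% and 0.838% near gaps and 1.64%, 0.202%, 0.181% and 0.0675% in the rest. The excess near gaps was thus found in both classes and was smaller among narrow peaks. In the wide peaks the median fold was 2.86, 2.89, 2.64 and 2.61 near gaps and 3.45, 3.35, 3.40 and 3.21 in the rest. Over all widths, the share with a −log10 q of at least 10 was 2.22%, 0.546%, 0.374% and 0.523% from 500 to 1000 kb. From 1000 to 2000 kb, counted in the rest, it was 2.99%, 0.613%, 0.541% and 0.297%. The whole rest had 1.34%, 0.140%, 0.126% and 0.0583%. The excess thus did not end with the members.

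For a test in which a library did not choose its own gaps, the gaps were found anew for each library in the merged peaks of the other 3 libraries. Of the 40 edges, 25, 24, 35 and 38 were those of the rule, and there were 4403, 4080, 3891 and 3545 members. The members tested were thus nearly the same as before, and the test is not independent of the rule. Each search gave 20 gaps, and the library left out had 6, 1, 1 and 0 peaks inside them (YAP replicates 1 and 2, TAZ replicates 1 and 2). The log2 ratio of median widths near gaps to the rest was 0.34 ± 0.08 (SD, n = 4) and positive in 4 of 4 libraries. The log2 ratio of peak densities was −0.25 ± 0.02 and negative in all 4, that of covered shares 0.21 ± 0.14 and positive in all 4. The difference of median folds was −0.165 ± 0.018, negative in all 4, and the log2 ratio of the shares with a −log10 q of at least 10 was 3.42 ± 1.26, positive in all 4. Each of the 5 gave p = 0.13 in an exact two-sided sign-flip permutation test over the 4 libraries, which is the smallest value that 4 libraries allow, and 0.13 after Benjamini-Hochberg adjustment over the 5. None could pass a threshold of 0.05 in this design. The 4 libraries share a cell line and possibly an input, so they are not fully independent.

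As a mean over the 4 libraries, the difference in coverage rested on the sequence closest to the edges. Within 50 kb of an edge, peaks covered 54.0%, 51.3%, 44.8% and 39.3% of the bases in YAP replicates 1 and 2 and TAZ replicates 1 and 2. From 50 to 100 kb the shares were 39.8%, 37.5%, 29.0% and 25.6%, and from 100 to 200 kb they were 27.7%, 24.97%, 17.9% and 15.0%. From 500 to 1000 kb they had come down to 17.2%, 15.0%, 12.8% and 12.9%, which is below the rest of the chromosomes in each library. The innermost value is partly built in, since an edge is by definition the border of a peak. Leaving out the innermost 100 kb, an alternative chosen after these values were seen, brought the log2 ratio of covered shares from 0.21 to 0.0052 (exact two-sided sign-flip permutation p = 1, n = 4). That mean joined opposite signs, 0.116 and 0.134 with YAP and −0.059 and −0.169 with TAZ. The other measures held without the innermost 100 kb, at 0.27 for width, −0.27 for density, −0.135 for the fold difference and 2.66 for the q-value share.

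**Figure D1:**
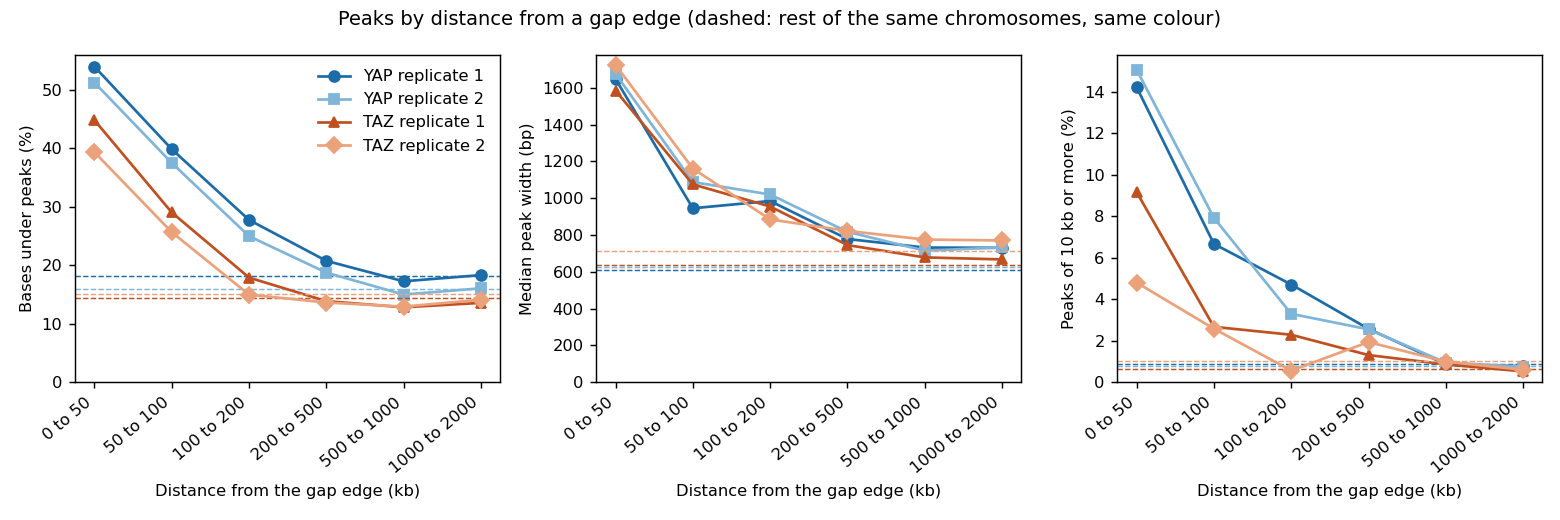
Share of bases under peaks (%), median peak width (bp) and share of peaks of at least 10 kb (%) against the distance from the nearest gap edge (kb, in classes of unequal length), 1 line per library; dashed lines give the rest of the same chromosomes. All 4 libraries are highest within 50 kb, where coverage lies between 39.3% and 54.0%, and YAP lies above TAZ in coverage at each distance.

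Median width also fell with distance, but unlike coverage it stayed above the pooled rest. Within 50 kb of an edge it was 1648, 1676, 1585 and 1724.5 bp in YAP replicates 1 and 2 and TAZ replicates 1 and 2. From 500 to 1000 kb it was 731.5, 714.5, 678 and 775 bp, against 608, 624, 635 and 711 bp in the rest. From 1000 to 2000 kb, beyond the members, it was 730, 732.5, 667 and 770 bp. Against the pooled rest, the greater width thus did not end with the members. The distance classes take similar lengths of each chromosome and the rest does not, and the part of this in the difference was not tested. At the outer border of 1 Mb the YAP medians came down and the TAZ medians were nearly level. The 484, 435, 410 and 382 members between 900 and 1000 kb from an edge had median widths of 804.5, 764, 713.5 and 706.5 bp. The 486, 456, 386 and 376 peaks between 1000 and 1100 kb had 711.5, 654, 726.5 and 701 bp.

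At the edges themselves the nearest peaks of the 4 libraries were often close together. There were 40 edges, 2 for each gap, and each is the border of a peak of at least 1 library by construction. The peak nearest to an edge reached to within 1 kb of it at 38 and 36 edges with YAP and at 34 and 30 with TAZ. All 4 libraries had a peak within 100 bp at 19 edges, within 1 kb at 30 and within 10 kb at 36. With edges found in the other 3 libraries, which the measured library did not set, its nearest peak lay within 1 kb at 35, 35, 33 and 30 of 40 edges. These outermost peaks were wide and of low fold. Their median width was 4231.5, 4166, 3290.5 and 2866 bp and their median fold 2.65, 2.79, 2.48 and 2.42. Their fold lay below the median of the rest at 32, 32, 32 and 33 of the 40 edges. A −log10 q of at least 10 was reached at 18, 15, 12 and 13 edges. The widest of them ended at the gap of chromosome 10 and was nearly the same in the 4 libraries, with 78524 bp in YAP replicate 1 (chr10:39076514-39155037), 78478 bp in YAP replicate 2, 78505 bp in TAZ replicate 1 and 78398 bp in TAZ replicate 2. Its fold was 3.31, 3.34, 3.35 and 3.05.

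Coverage differed widely between single gaps. The highest mean coverage was beside the gap of chromosome 12 (34856667 to 37859665), where YAP peaks covered 39.5% and 38.9% of the bases and TAZ peaks 24.7% and 22.9%. The gap of chromosome 19 (24629478 to 27731458) followed with YAP coverages of 39.8% and 35.7% and TAZ coverages of 25.6% and 19.98%. Beside that of chromosome 7 (58054359 to 61054237) YAP peaks covered 35.2% and 32.1% and TAZ peaks 25.8% and 23.8%. The lowest coverage was beside the gap of chromosome 9, where YAP peaks covered 2.97% and 2.18% and TAZ peaks 2.20% and 1.88%. The gaps of chromosome 6 (58779456 to 61880145) and chromosome 1 came next, with means over the 4 libraries of 9.01% and 9.24%. All 4 libraries thus had their lowest value beside the gap of chromosome 9. Bases of undetermined sequence inside the stretches could not be taken out of the lengths, and their part in the low values was not tested.

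**Figure D2:**
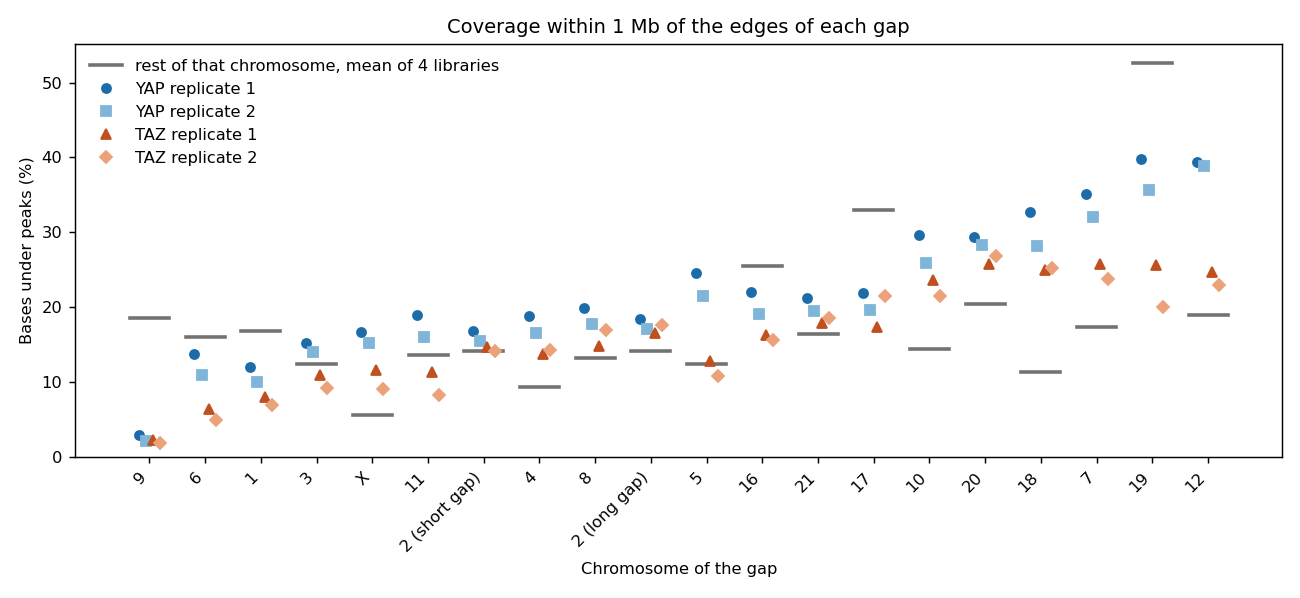
Share of bases under peaks (%) within 1 Mb of the edges of each of the 20 gaps, ordered by the mean of the 4 libraries; symbols are single libraries and grey bars give the rest of the same chromosome as the mean of 4 libraries. Single libraries run from 1.88% on chromosome 9 to 39.8% on chromosome 19, and on chromosome 19 all 4 libraries lie below the bar at 52.6%.

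Whether a gap's surroundings were fuller or emptier than the rest depended on the chromosome. Coverage was higher near the gap in all 4 libraries on 9 chromosomes (4, 7, 8, 10, 12, 18, 20, 21 and X) and lower in all 4 on 6 (1, 6, 9, 16, 17 and 19). On chromosome X, which is poor in peaks, coverage was 15.9% ± 0.96 for YAP and 10.3% ± 1.8 for TAZ near the gap and 6.66% ± 1.85 and 4.55% ± 0.45 in the rest (SD, n = 2). On chromosome 18 it was 30.5% ± 3.2 for YAP and 25.1% ± 0.24 for TAZ near the gap and 12.6% ± 1.7 and 10.2% ± 0.17 in the rest. On chromosome 19, the chromosome fullest in peaks, it was 37.7% ± 2.9 and 22.8% ± 4.0 near the gap and 52.8% ± 1.2 and 52.4% ± 3.3 in the rest. On chromosomes X and 18 coverage was thus higher near the gap, and on chromosome 19 lower, by more than the spread between libraries of 1 antibody.

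Peak density was lower near the gap in all 4 libraries on 14 of the 19 chromosomes and higher in all 4 on chromosomes 4 and 18. Median width was higher in all 4 on 10 chromosomes (2, 4, 5, 7, 8, 11, 12, 18, 20 and X) and lower in all 4 on 5 (3, 9, 16, 17 and 19). The lower fold was found on 17 and 14 chromosomes with YAP and on 17 and 16 with TAZ. The higher share of peaks with a −log10 q of at least 10 was found on 13 and 16 chromosomes with YAP and on 15 and 16 with TAZ. Some of these counts rest on 1 such member, as in TAZ replicate 2 on chromosomes 9, 11, 18, 20 and X. The ratios given for all gaps together are therefore averages over chromosomes that differ in sign for coverage and width. They also weight the chromosomes differently near gaps and in the rest.

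Set beside windows of the same length from all these chromosomes, most stretches near gaps were fuller than the typical window, though none was among the fullest. Full sides come in equal number from each chromosome, whereas windows follow chromosome length, so this comparison is not matched by chromosome. Against its own chromosome, coverage near the gap was higher in all 4 libraries on 9 chromosomes and lower on 6. Of the 40 sides, 38 had a full 1 Mb, with a mean coverage over the 4 libraries between 2.16% and 39.3% and a median of 18.2%. The 2488 windows of 1 Mb in the rest had a median of 10.2%, with 25% of them below 5.72% and 25% above 21.2%. Of the 38 sides, 30 lay above the median of the windows, 14 above 21.2% and 2 below 5.72%, and none reached 47.2%, which the fullest 5% of the windows exceeded. The side before the gap was the fuller one at 8 of 18 gaps and the side after it at 10. Chromosomes 13, 14, 15 and 22 also begin with a long peak-free stretch, their first peak starting between positions 16052005 and 20000019, but it has a peak on one side only and so was no gap by the rule. In the first 1 Mb after it, 7 of 271 peaks of YAP replicate 1 (2.58%) had a −log10 q of at least 10, 6 of them on chromosome 15. The other libraries had 0 of 240, 1 of 227 (0.441%) and 0 of 204 there.

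The best-ranked peaks of each list lay beside the gaps far more often than other peaks. Of the 100 peaks with the highest −log10 q, 38 and 43 were members with YAP and 30 and 34 with TAZ. The first-ranked peak was a member in both YAP libraries and in TAZ replicate 1, and the second-ranked one in TAZ replicate 2. Of all peaks on chromosomes 1 to 22 and X with a −log10 q of at least 10, members made up 3.76%, 16.5%, 11.2% and 23.6%. The lists held 5110, 552, 446 and 216 such peaks, by far the most in YAP replicate 1, where the share was lowest. Within 50 kb of an edge lay 51, 40, 24 and 27 of these members, which is 26.6%, 44.0%, 48% and 52.9% of them. Of all members, 5.58%, 5.37%, 6.45% and 7.05% lay there.

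These high-q members differed in kind from the other high-q peaks. Their median fold was 3.92, 3.299, 3.09 and 2.83, against 4.81, 5.29, 5.75 and 5.47 in the rest. Their median width was 978, 2379, 4086 and 3501 bp, against 476.5, 453, 444 and 511.5 bp. A fold under 3 was found in 45.1%, 62.5%, 75% and 77.8% of those within 50 kb of an edge, in 12.1%, 23.5%, 23.1% and 33.3% of those from 50 to 1000 kb away, and in 2.75%, 8.01%, 5.09% and 12.5% of those in the rest. Within 50 kb of an edge alone, the high-q peaks had a median fold of 3.11, 2.65, 2.35 and 2.32 and a median width of 3165, 4469.5, 6121 and 4160 bp. They were thus wider and lower in fold than those of the rest in each library, least so in fold in YAP replicate 1. The q-values of the lists depend on read depth, which is unknown, so members and other peaks were compared here within each library.

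**Figure D3:**
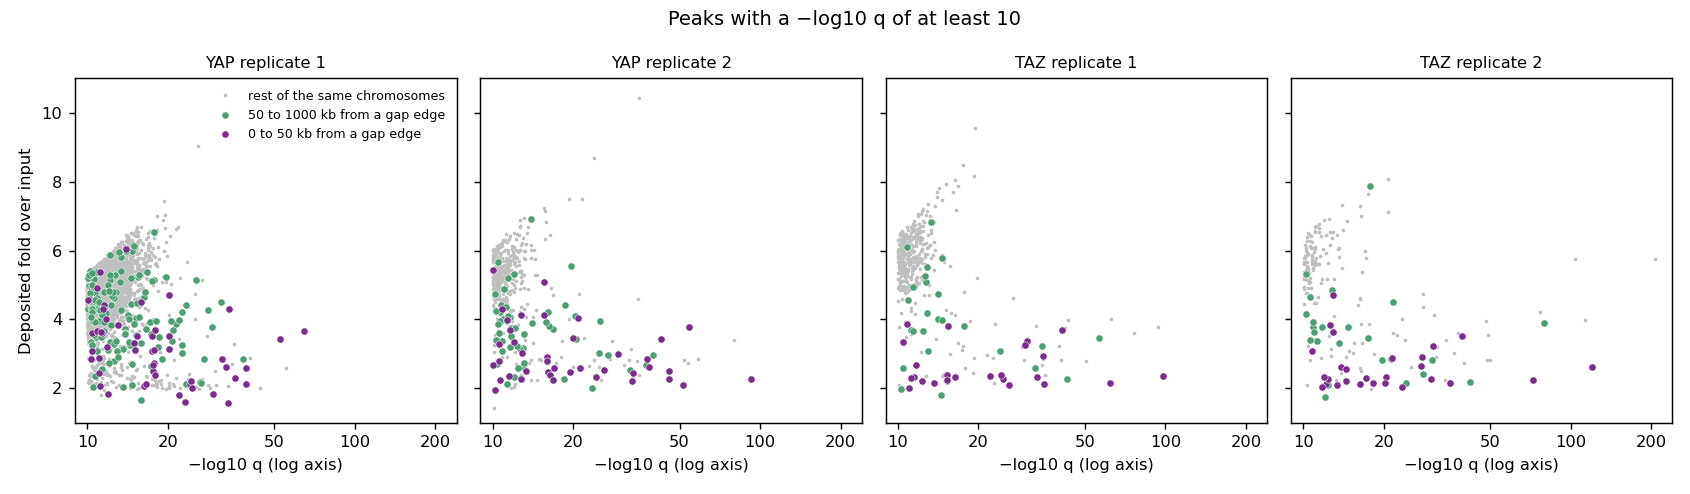
Deposited fold over input against −log10 q (log axis, from 10) for every peak with a −log10 q of at least 10 on the chromosomes with a gap, 1 panel per library; purple points lie within 50 kb of a gap edge, green ones from 50 to 1000 kb away, grey ones in the rest. Purple points spread to the right at low folds, with 45.1% under 3 in YAP replicate 1 and 62.5% to 77.8% in the others, whereas most grey points lie between folds of 4 and 7 at values near 10.

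The regions with the lowest summed rank over the 4 libraries show this kind of peak one by one. Of the 12 regions taken, 9 lay within 10 kb of an edge, and they came from 9 chromosomes. Their fold was between 1.59 and 3.91, with 35 of the 48 values under 3. First came chr6:58776096-58779455, which ends at the gap of chromosome 6. Its −log10 q was 33.6, 92.2, 98.2 and 119.8 in YAP replicates 1 and 2 and TAZ replicates 1 and 2, at a fold of 1.59, 2.26, 2.37 and 2.61. It ranked 14 in YAP replicate 1, 1 in YAP replicate 2 and TAZ replicate 1, and 2 in TAZ replicate 2. The region chr1:121481761-121485612, at the start of the longest gap, was alike, with a −log10 q of 23.2, 51.6, 61.9 and 72.4 at a fold of 1.62, 2.09, 2.14 and 2.25. In both regions YAP replicate 1 had the lowest value and TAZ replicate 2 the highest.

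Others were nearly the same in width and close in fold in the 4 libraries. The region chr17:25262990-25268118, the first-ranked peak of YAP replicate 1, had widths of 5129, 5108, 5093 and 5100 bp. Its fold was 3.66, 3.79, 3.69 and 3.51 and its −log10 q 64.5, 54.3, 41.1 and 39.2. The region chr1:142535295-142542962, at the far end of the longest gap, had folds of 3.42, 3.44, 3.37 and 3.23. The region chr16:46385728-46396962, at the end of the chromosome 16 gap, had folds of 2.12, 2.50, 2.33 and 2.28 over widths of 11230, 11233, 11211 and 11191 bp. The region chr18:18510874-18520470 had folds of 1.84, 2.27, 2.12 and 2.15. On chromosome 10, chr10:42354833-42402525 had widths of 47680, 47692, 47664 and 47652 bp and folds of 2.60, 2.84, 2.94 and 2.65. Since ranks picked these regions, YAP and TAZ were not tested against each other in them.

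A few regions of the 12 lay away from the edges. The region chr4:49093123-49160795, 499 kb from the gap of chromosome 4, was 1 peak of 67619 and 67545 bp in YAP replicate 1 and TAZ replicate 1, while the highest peaks of YAP replicate 2 and TAZ replicate 2 there had 34111 and 33748 bp. Its fold was 2.84, 2.96, 3.24 and 2.83. The region chr20:26188643-26190702, 129 kb from its gap, had a −log10 q of 26.7 and 37.5 with YAP and of 56.2 and 79.6 with TAZ, at folds of 2.15, 2.67, 3.46 and 3.91. Both TAZ folds lay above both YAP folds, without a test, since the region was picked by its ranks. The region chr10:42596719-42602028, 242 kb from its gap, had folds of 2.17, 2.55, 2.59 and 2.41. The remaining ones, chr4:49633210-49660234 and chr2:92305216-92326170, ended at a gap edge.

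The widest member of every library was the same region of chromosome 21, about 326 kb before the gap. It spanned 88167 bp in YAP replicate 1 (chr21:10772662-10860828), 88143 bp in YAP replicate 2, 88163 bp in TAZ replicate 1 and 87679 bp in TAZ replicate 2, at a fold of 3.86, 3.61, 3.67 and 3.29. The members of highest fold were narrow. They were chr1:142942030-142942999 in YAP replicate 1 (fold 6.53) and chr17:21925223-21925752 in YAP replicate 2 (fold 6.92). In both TAZ libraries it was a peak on chromosome 19, chr19:24119692-24120314 in TAZ replicate 1 (fold 6.83) and nearly the same interval in TAZ replicate 2 (fold 7.86). They lay 407, 337, 509 and 509 kb from the nearest edge. Narrow peaks of high fold, the usual form of high-q peak elsewhere, thus occurred among the members too, away from the edges.

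YAP and TAZ were compared for their ratios of members to the rest. The antibody was not used to choose the members, but peak positions of all 4 libraries were, and YAP peaks set more of the edges (17 and 17 of 40, against 6 and 2 for TAZ). The log2 ratio of densities was −0.26 ± 0.03 with YAP and −0.24 ± 0.02 with TAZ (SD, n = 2), and they differed by −0.021 (exact two-sided permutation p = 0.667). The difference of median folds was −0.168 ± 0.029 for YAP and −0.163 ± 0.007 for TAZ, apart by −0.0052 (exact two-sided permutation p = 1). The log2 ratio of widths was 0.40 ± 0.02 for YAP and 0.28 ± 0.01 for TAZ, a difference of 0.13 with both YAP libraries above both TAZ libraries (exact two-sided permutation p = 0.33, the smallest that 2 against 2 allow). Adjusted over the 3 comparisons, each p was 1. For coverage, added after its values were seen, the log2 ratio was 0.33 ± 0.03 for YAP and 0.10 ± 0.10 for TAZ, a difference of 0.23 (exact two-sided permutation p = 0.33). With the gaps found in the other 3 libraries, the differences were −0.021 in density, −0.0050 in fold, 0.13 in width and 0.23 in coverage, with the same p-values in the exact test.

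Beside single gaps the YAP lists covered more bases than the TAZ lists, as they did elsewhere. The mean YAP coverage was higher at 20 of 20 gaps, from 1.04 times the TAZ coverage at the longer gap of chromosome 2 to 2.17 times at that of chromosome 6. At the chromosome 6 gap YAP peaks covered 13.7% and 10.96% and TAZ peaks 6.46% and 4.90%, and at that of chromosome 5 (46405699 to 49405580) YAP peaks covered 24.6% and 21.6% and TAZ peaks 12.8% and 10.8%. Both YAP libraries lay above both TAZ libraries on 31 of the 38 full sides of 1 Mb, or 81.6%, and in 73% of the 2488 windows of the rest. The median ratio of YAP to TAZ coverage was 1.31 over the sides and 1.34 over the windows. By this count the sides were close to the other windows. By summed bases they differed, since the ratio of mean YAP to mean TAZ coverage was 1.35 over all stretches near gaps and 1.16 over the whole rest. Neither comparison was matched by chromosome. Of the 20 gaps 15 lay above 1.16, but the median window of the rest, at 1.34, did so too. The count of 15 therefore does not set the gaps apart from the windows. No test of either kind could reach the threshold with 2 libraries each.

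Some members were found with 1 antibody only. The merged members formed 5203 regions, of which 405 (7.78%) had peaks in both YAP lists and neither TAZ list, and 75 (1.44%) had peaks in both TAZ lists and neither YAP list. In the rest these shares were 6.88% and 1.41%. The best-ranked YAP examples were chr1:142586857-142587205 with folds of 3.85 and 3.47, chr6:61978704-61979093 with 4.38 and 4.03, and chr21:10196066-10196357 with 4.10 and 3.53. The best-ranked TAZ examples were chr4:49512334-49512648 with folds of 1.98 and 2.09, chr21:14416263-14416640 with 3.94 and 5.21, and chr16:47215187-47215711 with 4.52 and 4.86. All 6 were between 292 and 525 bp wide, unlike the broad regions shared by the 4 libraries. The YAP lists are longer, so a region found only in them can reflect list length, and this was not tested.

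The agreement between libraries near gaps depended on which peaks were compared. Over all deposited peaks, 59.8% to 87.5% of the members of a library were overlapped by at least 1 bp by a peak of another library (mean 75.5% over the 12 directions of the 6 pairs). In the rest the share was 65.8% to 87.6% (mean 77.0%). The difference was −1.51 percentage points ± 2.10 (SD over 4 libraries), which is less than its spread. Where an overlap had to cover 50% of both peaks, the means were 46.4% and 50.4%, and the difference of −3.99 percentage points ± 0.56 was larger than its spread. Of the merged regions, 37.7% had a peak in all 4 libraries near gaps and 39.6% in the rest, and 25.7% and 22.03% had a peak in 1 library only. Members were thus shared less often than other peaks under the stricter overlap, and not beyond the spread under the looser one.

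Among strong peaks, the 20000 of each library with the highest −log10 q, the picture was another. Near gaps lay 381, 438, 353 and 381 of these, or 9.84, 11.3, 9.11 and 9.84 per Mb, against 7.25 to 7.36 per Mb in the rest. From 1000 to 2000 kb from an edge, counted in the rest, lay 392, 416, 362 and 379 strong peaks in 37.8 Mb. The stretches near gaps held 38.7 Mb, so a density above that of the rest was not particular to the members. Strong members were overlapped by a strong peak of another library in 41.6% to 60.6% of cases (mean 50.7%), other strong peaks in 16.4% to 21.2% (mean 18.9%). With a reciprocal overlap of 50% the means were 40.8% and 16.0%. The lowest share near gaps exceeded the highest share in the rest, and this held for pairs of 1 antibody and for pairs of YAP with TAZ. The strong members were wider, with medians of 844, 793, 865 and 927 bp against 481, 443, 433 and 436 bp, and wide peaks overlap more easily. They were also denser, and the part of width, density and a shared input in this agreement was not tested. The comparison of strong peaks was added after other values had been seen.

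**Figure D4:**
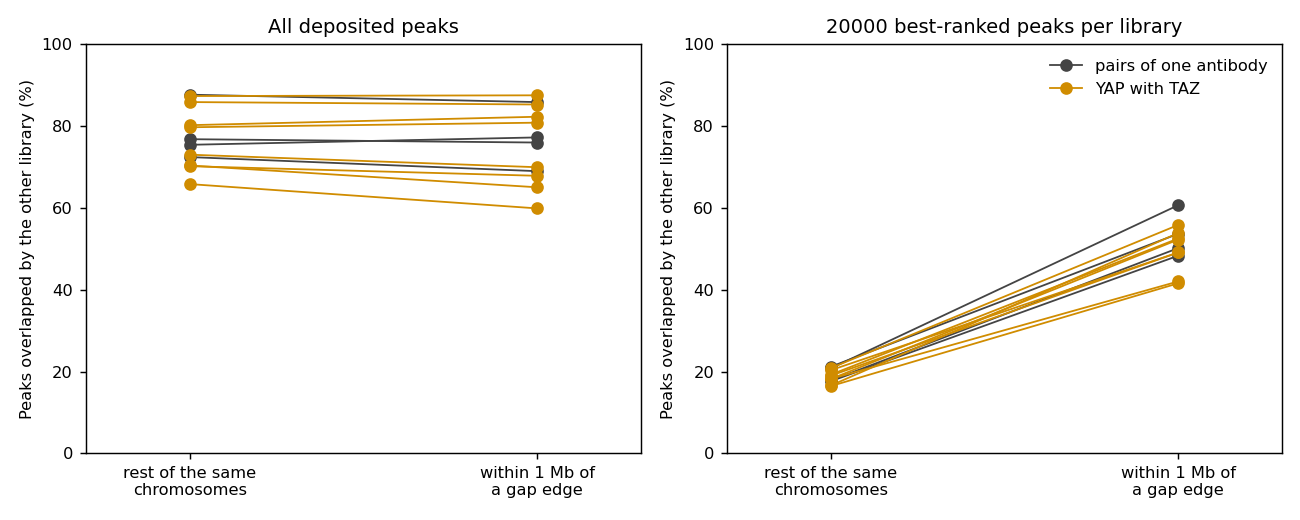
Share of peaks (%) overlapped by at least 1 bp by a peak of another library, in the rest of the same chromosomes and within 1 Mb of a gap edge; each line is 1 direction of a pair of libraries, dark for pairs of 1 antibody and yellow for YAP with TAZ. With all deposited peaks the lines are nearly level, and with the 20000 best-ranked peaks per library they rise from between 16.4% and 21.2% to between 41.6% and 60.6%.

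The shared bases gave a mixed result as well. The Jaccard index, the bases under peaks of both libraries divided by those under either, was between 0.485 and 0.672 near gaps and between 0.498 and 0.615 in the rest. It was higher near gaps in 5 of the 6 pairs, the exception being YAP replicate 1 with TAZ replicate 2. Divided by the product of both coverages, which allows for the fuller stretches, the shared bases came to between 3.58 and 4.52 near gaps and between 4.05 and 4.63 in the rest, and the value near gaps was the lower one in all 6 pairs. The fold of overlapping peaks agreed more closely near gaps. Spearman's rho between libraries was 0.365 to 0.494 over the matched members and 0.194 to 0.295 over the matched peaks of the rest, given as a description, since peaks of 1 library are not independent replicates and the libraries may share an input. For the pair of YAP libraries rho was 0.494 near gaps over 3347 matched peaks and 0.271 in the rest. For the pair of TAZ libraries it was 0.455 near gaps over 2683 matched peaks and 0.195 in the rest.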

How the data were processed

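The deposited files were broad peak lists, 1 for each of 4 antibody libraries; per the submitters' processing notes they were made with cutadapt, Bowtie2, SAMtools and MACS2 on hg19, without versions or settings in the sources used here. Per the file headers' layout and the peak names, peaks were called in each library against an input. The deposited fold is a ratio of ChIP over input, and the deposited −log10 p and −log10 q are the peak caller's. The score that the authors deposited restates the −log10 q and was left aside. In ratios and tests, fold and q entered as comparisons of members with other peaks within each list. For named regions and in Spearman's rho they are set side by side between libraries, as a description only. Depth, which can change both the number of peaks and their −log10 q, is unknown.

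Lists were merged and compared in Python 3.11.15 (numpy 2.4.6, pandas 2.3.3, scipy 1.17.1), with checks on simulated data. A peak was near a gap if 1 bp lay within 1 Mb of an edge, and gap lengths were left out of densities. The members, lists and tests were chosen with earlier results of these data known. The regions named were the 6 longest gaps and those with the 3 highest and 3 lowest coverages; the 12 regions with peaks of all 4 libraries and the lowest sum of ranks by −log10 q; the widest and highest-fold member of each library; the 3 best-ranked regions of 1 antibody only; and the gaps at the threshold. The edge peak of chromosome 10, the further gap of chromosome 2 and the chromosomes shown beside their rest were picked after their values were seen. Alternatives were other gap lengths, flanks, gap choices, q thresholds, list lengths, overlap rules, libraries or chromosomes left out, and the innermost 100 kb left out.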

Additional observations from a re-analysis of the deposited data

How the results depend on the processing

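The 5 differences between members and the rest, as means over libraries, kept their direction under each of the 34 alternatives tried for each of them. The log2 ratio of widths lay between 0.26 and 0.71, that of densities between −0.67 and −0.15, that of coverages between 0.0052 and 0.48 and that of q-value shares between 2.66 and 5.93, and the fold difference between −0.26 and −0.079. No alternative could take them past the threshold with 4 libraries. None of the alternatives gave the chromosomes the same weight near gaps and in the rest. The lower end for coverage came from leaving out the innermost 100 kb, where both YAP libraries were positive and both TAZ libraries negative. In TAZ replicate 2 the coverage ratio also turned negative with gaps of 0.5 Mb or more (−0.029) and with peaks within 2 Mb (−0.033). It did so as well without the gaps of chromosome 4, 7, 10, 18, 20 or X. The width difference between YAP and TAZ stayed positive (0.10 to 0.17). That in median fold, −0.0052, changed sign to 0.027 within 0.5 Mb, to 0.038 with lists of equal length, and to 0.0039, 0.0090, 0.00062 and 0.0030 without the gaps of chromosome 5, 6, 11 or 12. With 1 library left out it lay between −0.026 (without YAP replicate 2) and 0.015 (without YAP replicate 1). The YAP and TAZ difference in density, −0.021, became 0.020 without the innermost 100 kb and −0.116 with lists of equal length (exact two-sided permutation p = 0.33, the smallest possible).

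With the replicate number as a block, the paired differences of YAP and TAZ were −0.021 in density (exact sign-flip p = 1), 0.13 in width (p = 0.5) and −0.0052 in fold (p = 1), where 0.5 is the smallest p that 2 pairs allow. The labels do not say what a shared number means.

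The agreement of libraries near gaps minus that in the rest, −1.51 percentage points, was −3.99 with a reciprocal overlap of 50%, 0.50 with a −log10 q of at least 2, 31.9 with strong peaks only and 24.8 with strong peaks and a reciprocal overlap of 50%. The number of members was 8109 within 0.5 Mb, 33751 within 2 Mb and 564 at the shorter gap of chromosome 2 alone. Depth sets how many weak peaks a list holds, and it is unknown here.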
